A study of Mus musculus with 22 samples.

Results

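The genes of the proteasome were followed in mouse brown adipose tissue (BAT), as mRNA. The set held every protein-coding gene whose symbol starts with Psma, Psmb, Psmc, Psmd or Psme, 45 genes of the 55487 gene identifiers counted, and 4 pseudogenes with the same prefixes were left out. By role it comprised 8 alpha and 8 constitutive beta subunits of the 20S core, 3 immunosubunits, 6 ATPases and 11 other subunits of the 19S cap, 3 assembly chaperones, 4 activators, of which Psme1 and Psme2 encode PA28, and 2 genes that are neither a standard subunit nor an activator, Psmc3ip and Psme2b. Psmc3ip encodes a meiotic recombination factor, and Psme2b is a near-identical copy of Psme2. Psmb8, Psmb9, Psmb10, Psme1 and Psme2 are reported apart from the other 40.

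The study compared mice lacking CPEB2, an RNA-binding regulator of translation, with wild-type (WT) mice from the same heterozygous crosses. All were labelled male and on a C57BL/6 background. The study also tested whether extra PRDM16, a transcription factor of brown fat identity, changed the knockout (KO) tissue. An untreated cohort held 5 WT and 5 KO mice aged 21 to 25 weeks. In a second cohort of 3 mice per group, WT and KO mice received 20000000000 vector genomes of an adeno-associated virus (AAV) in 30 µl into the BAT at 16 weeks and were sampled 9 weeks later, at 25 weeks, and the virus carried GFP or PRDM16, which gave 4 groups written here as genotype + virus. The KO lacked CPEB2 in the whole body, the PRDM16 of the virus was a Flag-tagged coding region, all 4 AAV groups received a virus, and whole BAT was sequenced. In such bulk tissue, fewer cells of a type and less RNA per cell cannot be told apart.

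The proteasome degrades proteins that carry ubiquitin chains. Its 20S core is a stack of alpha and beta rings in which PSMB5, PSMB6 and PSMB7 cut the protein chain, and the 19S cap recognises, unfolds and feeds in the substrate. Interferon and constant expression in immune cells bring in PSMB8, PSMB9 and PSMB10 in place of PSMB5, PSMB6 and PSMB7, which gives the immunoproteasome, and PA28 caps it; its peptides feed MHC class I presentation. In brown fat the transcription factor NFE2L1 is known to sustain proteasome genes for thermogenesis.

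Libraries held 55320927 to 162721202 counts in the untreated cohort and 61636889 to 143005309 in the AAV cohort, and the proteasome genes took 0.195 to 0.292% of them. All BAT samples carried the adipocyte markers, with Ucp1 between 1184 and 6700 CPM (counts scaled to the library size after TMM normalisation). In the AAV cohort Cpeb2 lay between 4.33 and 5.55 CPM in KO libraries and between 10.5 and 14.0 CPM in WT libraries, and Prdm16 between 45.9 and 128 CPM with AAV-PRDM16 and between 23.9 and 40.2 CPM with AAV-GFP. In the untreated cohort, mouse 1 labelled KO had 11.7 CPM of Cpeb2, inside the WT range of 7.69 to 14.3 CPM, while the other 4 had 2.10 to 5.78, so these 5 are called the libraries labelled KO. Y-linked transcripts were at or under 1.15 CPM in 6 of the 10 untreated libraries although all are labelled male. They stood at 113 to 189 CPM in WT mice 1, 2 and 4 and in mouse 2 labelled KO, so their presence was unequal between the genotypes. WT mice 1 and 2 also stood apart, with Nfe2l1 at 680 and 577 CPM against 253 to 516 in the other 8, so values without them are given below. Skeletal muscle RNA differed widely in that cohort, the summed muscle markers running from 6.89 to 5899 CPM, while in the AAV cohort they reached 85.9 CPM in KO + AAV-GFP mouse 1 and 23.9 in WT + AAV-PRDM16 mouse 2 and at most 1.57 elsewhere.

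The promoters of the immunosubunit genes are shown because their mRNAs gave the lowest p-values in the comparison of the viruses and because interferon acts through short promoter elements. Psme1, a PA28 gene that had no such p-value, is shown beside them. The sequences are RefSeq's on GRCm38.p6, 5′ to 3′ on the strand of the gene, and each covers the 250 bases before the RefSeq start site. For Psme1 alone 20 more bases are shown, which take in a match after the start. Capitals mark any match on either strand to the interferon-stimulated response element (ISRE, GAAA and GAAA with any 2 bases between), the gamma-activated site (GAS, TTCNNNGAA), the antioxidant element (ARE, TGAC and GCA with any 3 bases between), CCAAT or the GC box (GGGCGG). The Psmb8 window lies at chr17:34197945-34198194 on the plus strand, Psmb9 at chr17:34187331-34187580 on the minus strand, Psmb10 at chr8:105938393-105938642 on the minus strand and Psme1 at chr14:55578244-55578513 on the plus strand. In GENCODE M21 the spans of Psmb8, Psmb9 and Psme1 begin upstream of these windows, and that of Psmb10 begins within its window. The matches hold for the RefSeq starts only.
Psmb8: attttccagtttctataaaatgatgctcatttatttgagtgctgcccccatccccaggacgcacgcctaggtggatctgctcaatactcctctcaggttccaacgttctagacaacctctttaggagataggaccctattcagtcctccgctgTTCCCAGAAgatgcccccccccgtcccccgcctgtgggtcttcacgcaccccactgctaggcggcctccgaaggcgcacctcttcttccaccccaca
Psmb9: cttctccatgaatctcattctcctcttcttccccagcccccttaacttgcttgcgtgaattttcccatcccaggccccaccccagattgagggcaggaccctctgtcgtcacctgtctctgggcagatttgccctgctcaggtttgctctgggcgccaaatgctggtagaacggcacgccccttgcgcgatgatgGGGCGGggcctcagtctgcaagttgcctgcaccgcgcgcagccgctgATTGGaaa
Psmb10: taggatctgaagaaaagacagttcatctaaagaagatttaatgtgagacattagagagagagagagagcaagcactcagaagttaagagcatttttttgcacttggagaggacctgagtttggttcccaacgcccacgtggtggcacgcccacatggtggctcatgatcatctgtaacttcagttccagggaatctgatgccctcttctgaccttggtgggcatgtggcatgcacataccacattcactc
Psme1: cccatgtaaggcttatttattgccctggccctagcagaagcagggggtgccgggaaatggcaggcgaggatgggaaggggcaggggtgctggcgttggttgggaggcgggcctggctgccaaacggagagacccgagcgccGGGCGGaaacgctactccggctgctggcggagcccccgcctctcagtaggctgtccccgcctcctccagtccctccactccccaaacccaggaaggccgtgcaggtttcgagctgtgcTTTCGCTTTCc
The Psmb8 window held a GAS from base -97 to -89. The Psmb9 window held a GC box from -55 to -50 and an inverted CCAAT from -8 to -4, and 275 bases of its 300-base promoter window were shared with that of Tap1, the MHC class I peptide transporter, which is read in the other direction. The Psmb10 window held none of these letters. Psme1 had a GC box from -109 to -104 and an inverted ISRE from base 10 to 19 after the start. The window of Psme2, the other PA28 gene, is not shown and held only GC boxes. Promoters were found for 38 of the 45 genes, in 41 windows, and 4 of these windows held an ISRE, 2 a GAS, 2 an ARE, 15 a CCAAT and 23 a GC box, where of all 32851 promoter windows 3.44%, 8.3%, 3.04%, 37.4% and 35.7% did. Besides Psme1, the ISRE stood in Psmb3, Psmd4 and Psmd9, and the ARE, the element that NFE2L1 and NFE2L2 bind, in Psmd12 and Psme4. A match describes letters and not a bound site.

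After the filter on low counts, 43 of the 45 genes were tested in each cohort. Psma8, the testis form of an alpha subunit, had at most 21 counts in any library and Psmb11, the thymus-specific beta subunit, at most 6, and both failed the filter. On the scale of CPM per kilobase of the principal transcript, which allows levels of different genes to be compared, Psmd8, a subunit of the 19S lid, was the highest gene in both cohorts, with a mean of 106 in the 12 AAV libraries and 116 in the 10 untreated libraries. The highest alpha subunit was Psma1 at 58.2 in the AAV libraries and Psma6 at 71.2 in the untreated libraries, the highest core beta subunit Psmb7 at 81.2 and Psmb6 at 101, and the highest ATPase Psmc3 at 47.1 and 52.9.

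The immunosubunits stood at the low end. In the AAV libraries Psmb8 averaged 6.80, Psmb10 6.72 and Psmb9 3.62 CPM per kilobase, ranks 38, 39 and 40 of 45, and in the untreated libraries 7.61, 9.71 and 4.92. The ranges of Psmb8 and Psmb10 overlapped. PA28 was higher, with Psme1 at 29.3 and Psme2 at 21.6 in the AAV libraries. Among the chaperones Psmd10 was highest, at 6.88 and 7.23, and among the other activators Psme3, the nuclear PA28 gamma, at 24.3 and 21.4. Psmc3ip was barely expressed, at 0.535 and 0.701.

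**Figure D1:**
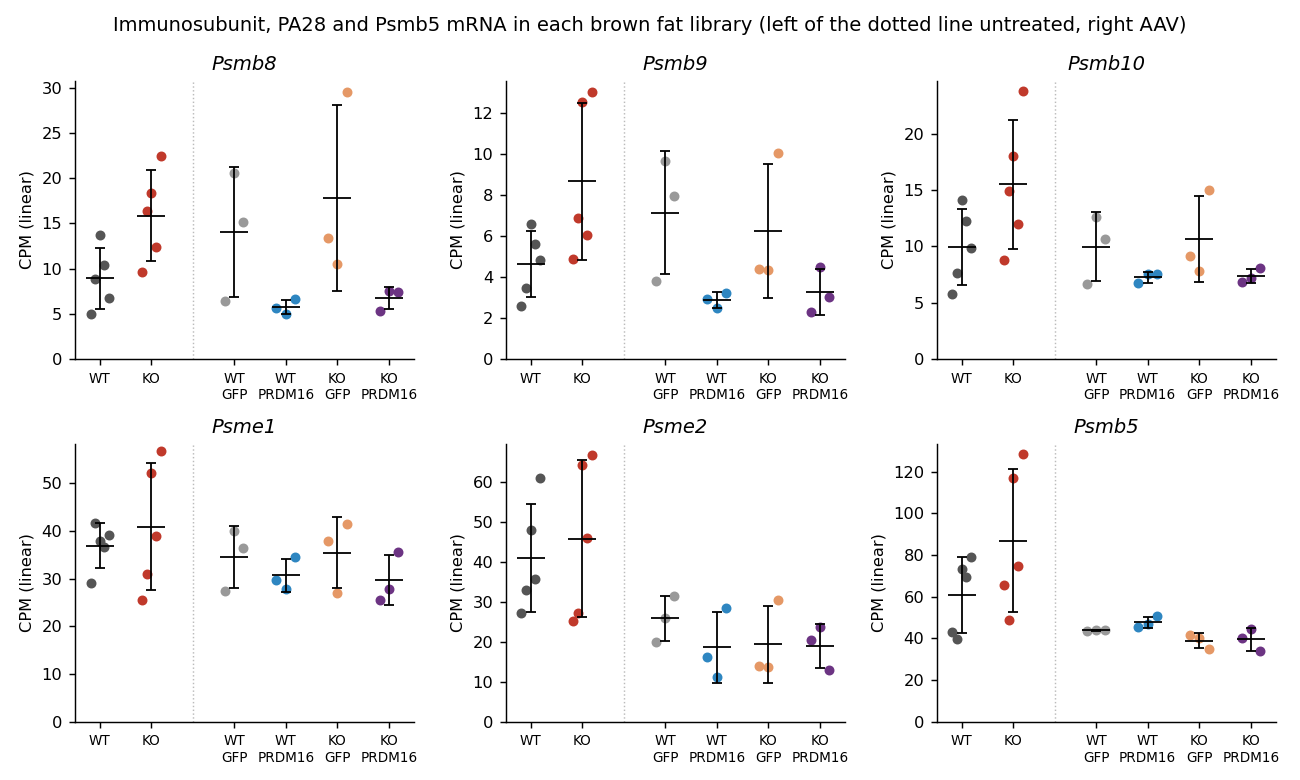
CPM of Psmb8, Psmb9, Psmb10, Psme1, Psme2 and, for comparison, Psmb5 in every library (points), with the mean and SD of each group (bars), untreated cohort left of the dotted line and AAV cohort right of it. All 6 AAV-PRDM16 libraries lie between 5.0 and 7.48 CPM for Psmb8, and the AAV-GFP libraries spread from 6.36 to 29.5.

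AAV-PRDM16 was first compared with AAV-GFP over both genotypes, to ask whether added PRDM16 changed proteasome mRNAs. By edgeR's quasi-likelihood test no proteasome gene was called at a false discovery rate (FDR) of 0.05, where 0.037% of all 18899 genes tested were, and in none did the groups separate in both genotypes (0.302% of all genes higher, 1.51% lower). At an unadjusted p under 0.05, Psmb8, Psmb9 and Psmb10 were lower (3 of 43, with 7.02% of all genes lower by that rule) and Psmb6 and Psmc3ip were higher (2 of 43, with 2.07% of all genes), while DESeq2 called Psmb8 and Psmb9 at an FDR of 0.05, 2 of 43 where it called 3.19% of all genes with an adjusted p. The median log2 fold change of the 43 genes was 0.00 (all genes, -0.01).

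Psmb8, the immunosubunit that replaces PSMB5, read 6.36, 20.6 and 15.2 CPM in WT + AAV-GFP and 13.3, 10.5 and 29.5 in KO + AAV-GFP. With AAV-PRDM16 it read 5.62, 5.0 and 6.61 CPM in WT and 5.29, 7.48 and 7.37 in KO. The KO groups did not overlap, and in WT only the low AAV-GFP mouse 1 fell within the AAV-PRDM16 range. The log2 fold change was -1.35 (SE 0.30), or 0.392-fold, with an edgeR adjusted p of 0.0644 and a DESeq2 adjusted p of 0.000189. Without WT + AAV-GFP mouse 1 edgeR's adjusted p was 0.0141, without KO + AAV-GFP mouse 3 the log2 fold change was -1.06 with 0.116, and over 19 alternatives the adjusted p ran from 0.000189 to 0.171.

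Psmb9, which replaces PSMB6, read 3.82, 9.66 and 7.95 CPM in WT + AAV-GFP and 2.95, 2.48 and 3.25 in WT + AAV-PRDM16. It read 4.38, 4.37 and 10.05 CPM in KO + AAV-GFP and 2.30, 4.5 and 3.02 in KO + AAV-PRDM16. The WT groups did not overlap, and in KO mouse 2 with AAV-PRDM16 lay above mice 1 and 2 with AAV-GFP. The log2 fold change was -1.12 (SE 0.28), with an edgeR adjusted p of 0.0933 and a DESeq2 adjusted p of 0.00297. Without WT + AAV-GFP mouse 1 edgeR's was 0.0280, and over 19 alternatives the adjusted p ran from 0.00297 to 0.244. The annotated spans of Psmb9 and Tap1 overlap on opposite strands, and the strand setting of the counting was not given in the sources used here, so reads of the shared stretch could count for either gene.

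Psmb10, which replaces PSMB7, read 6.62, 12.6 and 10.6 CPM in WT + AAV-GFP against 6.73, 7.53 and 7.52 with AAV-PRDM16, and 9.13, 7.83 and 14.98 in KO + AAV-GFP against 6.85, 7.22 and 8.09. Its groups overlapped in both genotypes, and the log2 fold change was -0.49 (SE 0.18, edgeR adjusted p 0.327). The PA28 genes differed less, Psme1 by -0.21 (SE 0.13, edgeR adjusted p 0.758) and Psme2 by -0.25 (SE 0.27, edgeR adjusted p 0.922) on the log2 scale. Leaving out 1 library at a time moved Psme2 between -0.48 and -0.01, and with a spline trend of counts on transcript GC content and length removed in each library (the GC and length trend) Psme1 was at -0.10. That correction moved the median of all genes from -0.01 to 0.11.

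Within each genotype the same 5 genes were all lower with AAV-PRDM16, and none was called. In WT, Psmb8, Psmb9 and Psmb10 had log2 fold changes of -1.29, -1.31 and -0.46, with edgeR adjusted p of 0.497, 0.474 and 0.765. In WT 2 of 43 genes (Psmb8 and Psmb9) were lower and 1 (Psmc3ip) higher at an unadjusted p under 0.05, against 5.19% and 2.1% of all genes, and 5 genes (Psmd6, Psmb5, Psmc4, Psmd10 and Psmc2) lay wholly higher and Psmb9 wholly lower, against 6.39% and 7.76%. In KO they had -1.41, -0.94 and -0.53, with edgeR adjusted p of 0.375, 0.687 and 0.825. In KO 3 genes (Psmb8, Psmb9 and Psme2b) were lower and 0 higher, against 5.1% and 1.31% of all genes, and Psmc3ip lay wholly higher and Psmb8 wholly lower, against 3.38% and 6.05%. By edgeR 0.0% of all genes were called in either genotype. DESeq2 called 0 of 43 in WT, where it called 0.873% of all genes, and 1 of 43 (Psmb8) in KO, where it called 1.44%. The KO values rested in part on KO + AAV-GFP mouse 3, without which the log2 fold changes of Psmb8, Psmb9 and Psmb10 were -0.83, -0.42 and -0.20, and that of Psmb10 in WT was -0.25 without WT + AAV-GFP mouse 2.

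**Figure D2:**
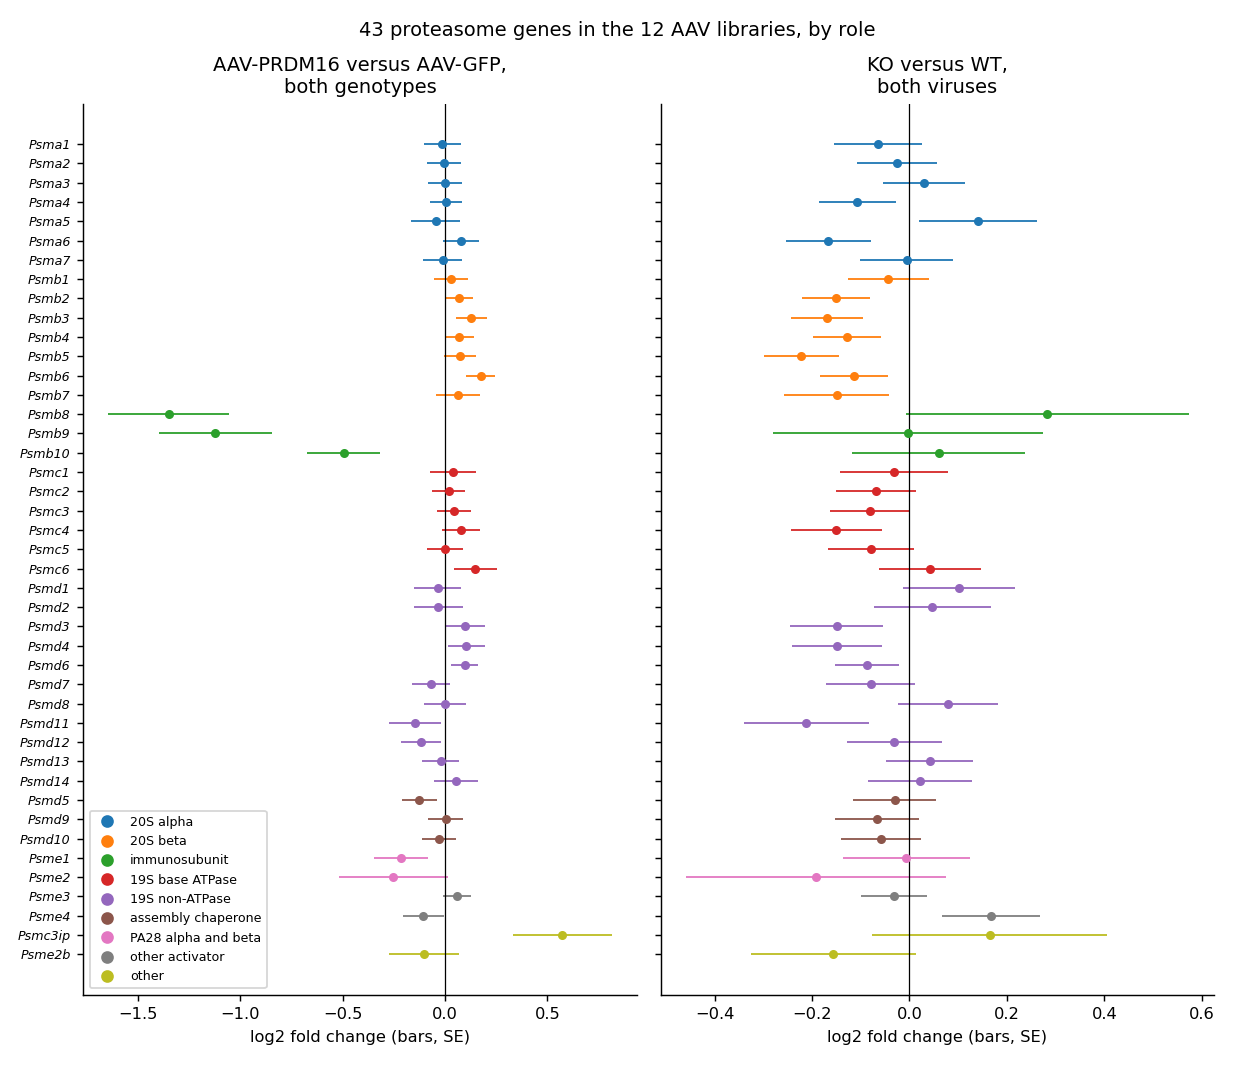
Log2 fold change with its SE for each of the 43 proteasome genes tested in the 12 AAV libraries, coloured by role, for AAV-PRDM16 versus AAV-GFP (left) and KO versus WT (right). Psmb8, Psmb9 and Psmb10 lie lowest on the left at -1.35, -1.12 and -0.49, and the core beta subunits sit between 0.03 and 0.17.

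Apart from Psmc3ip, the genes other than the 5 reported apart differed less between the viruses. These 38 tested genes include chaperones, activators, Psmc3ip and Psme2b beside the constitutive subunits. Their log2 fold changes ran from -0.15 to 0.57 (Psmc3ip), with a median of 0.01 and a median SE of 0.09. All 7 core beta subunits were on the higher side, by 0.03 to 0.17, and Psmb6, the caspase-like subunit, had the smallest p among them, with 38.7, 41.1 and 44.4 CPM in WT + AAV-GFP, 48.6, 43.9 and 51.2 in WT + AAV-PRDM16, 43.9, 36.7 and 37.2 in KO + AAV-GFP and 43.6, 43.4 and 42.4 in KO + AAV-PRDM16. The groups overlapped in both genotypes, and its log2 fold change of 0.17 (SE 0.07) had an edgeR adjusted p of 0.429. With the GC and length trend removed it was 0.28, where the median of all genes moved from -0.01 to 0.11. The alpha subunits ranged from -0.05 to 0.08 and the ATPases reached at most 0.15. Psmb5 was at 0.07 (SE 0.08) and Psmb7 at 0.06 (SE 0.11). Psmc3ip was higher by 0.57 (SE 0.24, edgeR adjusted p 0.472) at 0.376 to 1.07 CPM.

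To set each immunosubunit against the subunit it replaces, the ratio of the pair per transcript length was taken in each library, a value that does not depend on library scaling. Psmb8/Psmb5 was 0.0807, 0.259 and 0.191 in WT + AAV-GFP and 0.178, 0.145 and 0.467 in KO + AAV-GFP. With AAV-PRDM16 it was 0.0683, 0.0592 and 0.0721 in WT and 0.0730, 0.0929 and 0.121 in KO. Every AAV-PRDM16 library was below every AAV-GFP library of its genotype. The mean log2 difference was -1.28, and an exact permutation test within genotype gave p = 0.005, the smallest that its 400 arrangements allow (adjusted p = 0.045 over the 9 ratio tests, two-sided).

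Psmb9/Psmb6 was 0.0585 to 0.139 in WT + AAV-GFP and 0.0335 to 0.0377 in WT + AAV-PRDM16, without overlap, and 0.0591 to 0.160 in KO + AAV-GFP and 0.0314 to 0.0614 in KO + AAV-PRDM16. Its mean log2 difference was -1.21 (exact permutation p = 0.01, adjusted p = 0.045). Psmb10/Psmb7 overlapped in both genotypes, with a difference of -0.52 (exact permutation p = 0.085, adjusted p = 0.157). Without WT + AAV-GFP mouse 1 that p was 0.025, and without KO + AAV-GFP mouse 2 it was 0.04. Between KO and WT over both viruses the ratios differed by 0.51, 0.08 and 0.22 on the log2 scale for the 3 pairs, with exact permutation p of 0.21, 0.78 and 0.47.

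**Figure D3:**
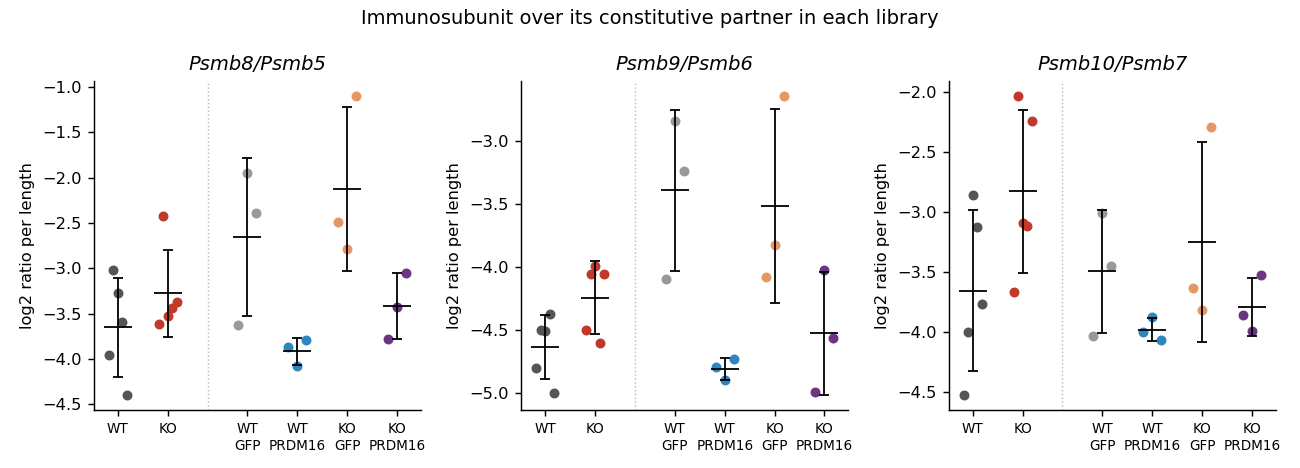
Log2 ratio of each immunosubunit to its constitutive partner per transcript length in every library (points) with group mean and SD (bars), untreated cohort left of the dotted line. For Psmb8/Psmb5 the AAV-PRDM16 libraries lie between -4.08 and -3.05 and the AAV-GFP libraries between -3.63 and -1.10.

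Genes that load the peptides and control their supply were then described. Of 21 genes of peptide loading, MHC class I and its interferon regulators, 21 were lower with AAV-PRDM16 over both genotypes, 17 of them at an unadjusted p under 0.05 (7.02% of all genes tested), with a median log2 fold change of -0.54. Irf1, a transcription factor that switches on Psmb9 and Tap1, passed the FDR, with 24.0 to 28.6 CPM in WT + AAV-GFP, 14.9 to 15.5 in WT + AAV-PRDM16, 21.96 to 27.7 in KO + AAV-GFP and 16.1 to 19.2 in KO + AAV-PRDM16, without overlap in either genotype. It fell by 0.61 on the log2 scale (SE 0.08, edgeR adjusted p 0.0453). Over 19 alternatives its adjusted p ran from 2.99e-08 to 0.141, and the call was kept in 8 of them. Tap1 read 13.0, 21.5 and 21.3 CPM in WT + AAV-GFP against 8.46, 8.36 and 8.84, and 13.2, 14.2 and 25.7 in KO + AAV-GFP against 8.40, 11.2 and 8.34, again without overlap, with a log2 fold change of -1.02 (SE 0.18, edgeR adjusted p 0.0527). Nlrc5, the MHC class I transactivator, had -0.68 (SE 0.24, edgeR adjusted p 0.320).

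Genes for building and feeding the proteasome lay on both sides. Of 20 assembly and regulation genes tested, 12 were higher and 8 lower, 1 with an unadjusted p under 0.05 and 0 called by edgeR, with a median of 0.00. Nfe2l1 read 611 to 673 CPM in WT + AAV-GFP, 661 to 708 in WT + AAV-PRDM16, 576 to 693 in KO + AAV-GFP and 628 to 663 in KO + AAV-PRDM16. Pomp, the maturation factor of the 20S core, read 25.1 to 28.3 CPM in WT + AAV-GFP, 25.1 to 27.3 in WT + AAV-PRDM16, 22.7 to 23.1 in KO + AAV-GFP and 20.96 to 26.3 in KO + AAV-PRDM16. The 6 ubiquitin supply genes and the 8 shuttle genes had medians of 0.09 and 0.03, none called and none with an unadjusted p under 0.05.

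Immune cell markers differed between the same libraries. The summed T cell markers (10 genes) were 1.98, 25.6 and 14.5 CPM in WT + AAV-GFP, 10.2, 9.36 and 35.8 in KO + AAV-GFP, 1.39 to 1.98 in WT + AAV-PRDM16 and 0.912 to 2.66 in KO + AAV-PRDM16. The low library was WT + AAV-GFP mouse 1 and the highest KO + AAV-GFP mouse 3, which were also the lowest and highest AAV-GFP libraries for Psmb8. All 10 T cell markers were lower with AAV-PRDM16 at an unadjusted p under 0.05, with a median log2 fold change of -3.15 and 0 called at an FDR of 0.05. All 8 macrophage markers were lower by the same rule, with a median of -1.17, and their sum was 44.0 to 56.5 CPM in WT + AAV-PRDM16, 62.2 to 135 in WT + AAV-GFP, 78.7 to 101 in KO + AAV-PRDM16 and 153 to 398 in KO + AAV-GFP. The 3 leukocyte markers summed to 4.73 to 10.3 CPM with AAV-PRDM16 and 7.87 to 64.5 with AAV-GFP, the 6 B cell markers to 0.424 to 3.40 CPM over all 12 (4 of 5 tested lower), and the 4 dendritic cell markers to 12.9 to 25.7 CPM (4 of 4 lower). The part of immune cells in the differences of Psmb8 and Psmb9 was not tested. Of the T cell markers, Cd3d, Cd3g, Cd8b1, Cd4, Trbc2 and Cd2 were at 0 in at least 1 of the 12 AAV libraries. Of the dendritic cell markers, Zbtb46 read 11.6 to 21.6 CPM and made up most of the sum. Flt3, Xcr1 and Clec9a reached at most 1.08, 0.708 and 2.38 CPM, with Flt3 at 0 in 4 of the 12.

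Genes outside the set that were tested in both cohorts were ranked by likeness to Psmb9 across the 12 AAV libraries, after the group means were removed. The highest 5 were the T cell receptor partner Cd28 (r = 0.97), Tap1 (0.96), Gm10254 (0.94), Cd8a (0.94) and Gna15 (0.94). In the 10 untreated libraries the same 5 had r of -0.27, 0.73, -0.49, -0.17 and 0.25. Of these 5, Tap1 alone had r over 0.7 in both cohorts. Its span overlaps that of Psmb9 on the opposite strand, so reads of the shared stretch could count for either gene. Among the proteasome genes Psmb8 had 0.95 and 0.87, Psmb10 0.86 and 0.96, Psme2 0.69 and 0.80 and Psme1 0.68 and 0.79, whereas Psmb5 had -0.12 and 0.84 and Psme4 -0.56 and -0.89. These values describe libraries that share depth and cell makeup, and no p is attached.

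KO was compared with WT over both viruses, to ask whether loss of CPEB2 changed proteasome mRNAs. By edgeR 0 of 43 proteasome genes were called, against 2.18% of all genes, and DESeq2 called 0, against 9.93%. At an unadjusted p under 0.05, 3 genes were lower (8.76% of all genes) and 0 higher (9.54%), and 1 gene lay wholly lower under each virus (2.66%) and 0 wholly higher (2.04%). Psmb8 differed by 0.28 (SE 0.29), Psmb9 by -0.00 (SE 0.28), Psmb10 by 0.06 (SE 0.18), Psme1 by -0.01 (SE 0.13) and Psme2 by -0.19 (SE 0.27) on the log2 scale. The whole list leaned low, with 31 of 43 genes on the lower side and a median of -0.06, where the median of all genes was 0.01. In the same comparison all 8 macrophage markers were higher in KO at an unadjusted p under 0.05, with a median log2 fold change of 0.98 and 3 called by edgeR (Csf1r, C1qb and Mrc1), and their sums are those given above. Of 8 brown adipocyte markers 7 were lower, 5 at an unadjusted p under 0.05 and 2 called (Cidea and Cox8b), with a median of -0.37, and they summed to 3152 to 5323 CPM in WT + AAV-GFP, 4740 to 6374 in WT + AAV-PRDM16, 3490 to 3994 in KO + AAV-GFP and 3369 to 4311 in KO + AAV-PRDM16. The part of cell makeup in the proteasome values was not tested.

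The 3 lower genes were core beta subunits, and all 7 of that class were on the lower side, by 0.04 to 0.22. Psmb5, the chymotrypsin-like catalytic subunit, read 43.7, 43.9 and 43.8 CPM in WT + AAV-GFP and 41.5, 40.2 and 34.9 in KO + AAV-GFP. With AAV-PRDM16 it read 45.6, 46.8 and 50.8 CPM in WT and 40.2, 44.6 and 33.8 in KO. The groups did not overlap under either virus, and the log2 fold change was -0.22 (SE 0.08), or 0.858-fold, with an edgeR adjusted p of 0.145. Psmb3, a structural beta subunit, read 35.2, 36.9 and 36.7 CPM in WT + AAV-GFP against 35.3, 34.3 and 28.9 in KO + AAV-GFP, and its log2 fold change over both viruses was -0.17 (SE 0.07, edgeR adjusted p 0.249). On the higher side the smallest p belonged to Psme4, the activator PA200, at 0.17 (SE 0.10, edgeR adjusted p 0.412), and Psma5 at 0.14 (SE 0.12, edgeR adjusted p 0.592). With the GC and length trend removed Psmb5 was at -0.14, Psmb3 at -0.11 and Psme4 at 0.01, where the median of all genes moved from 0.01 to -0.06. Without KO + AAV-GFP mouse 1 Psme4 was at 0.11 and Psma5 at 0.08, and Psma5 was at 0.05 without KO + AAV-PRDM16 mouse 2 and at 0.21 without WT + AAV-GFP mouse 3.

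By virus, KO against WT called 0 of 43 genes with AAV-GFP (0.0529% of all genes) and 0 with AAV-PRDM16 (0.0476%) by edgeR, and 0 and 0 by DESeq2 (1.64% and 3.71% of all genes). At an unadjusted p under 0.05 there were 0 genes in either direction with AAV-GFP, against 4.98% higher and 4.2% lower of all genes, and Psmb5 alone lay wholly lower (6.88%) and 0 wholly higher (6.51%). With AAV-PRDM16 Psmb5 and Psme2b were lower (2 of 43, against 6.8%) and 0 higher (6.92%). With AAV-PRDM16 6 genes lay wholly below WT (Psmd6, Psmb6, Psmb5, Psmd4, Psmd10 and Psmc2) and 1, Psme4, wholly above, against 11.2% and 11.5% of all genes.

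In KO versus WT over both viruses, 1 of the 20 assembly and regulation genes tested passed the FDR, where 2.18% of all genes did. Of the 6 ubiquitin supply, 8 shuttle and 21 peptide loading and MHC class I genes, 0 did. Psmg1, a chaperone that builds the alpha ring, read 7.51 to 8.01 CPM in WT + AAV-GFP, 8.39 to 9.81 in WT + AAV-PRDM16, 5.82 to 6.36 in KO + AAV-GFP and 6.83 to 7.35 in KO + AAV-PRDM16. KO lay below WT under each virus, and the gene fell by 0.36 on the log2 scale (SE 0.08, edgeR adjusted p 0.0379). Over 19 alternatives its adjusted p ran from 0.00058 to 0.112, and the call was kept in 5 of them. In the untreated cohort Psmg1 read 5.81 to 16.8 CPM in WT and 7.43 to 15.96 in the libraries labelled KO.

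KO mice given PRDM16 were also set against WT mice given GFP, the pair that asks whether the tissue returned to the control state. The comparison shares its libraries with those above. By edgeR 0 of 43 genes were called (0.00529% of all genes), DESeq2 called 0 (0.832%), and at an unadjusted p under 0.05 Psmb8 and Psmb9 were lower (4.42% of all genes) and 0 higher (3.5%), while Psmc3ip lay wholly higher (6.15%) and 0 genes wholly lower (7.09%). Psmb8 had a log2 fold change of -1.07 (SE 0.41, edgeR adjusted p 0.566), Psmb9 -1.12 (SE 0.39, edgeR adjusted p 0.522), Psmb10 -0.44 (SE 0.25), Psme1 -0.22 (SE 0.19) and Psme2 -0.44 (SE 0.38). On the higher side Psmc3ip at 0.74 (SE 0.34) and Psmc6, an ATPase of the 19S base, at 0.19 (SE 0.15) had the smallest p. Psmc6 read 80.5, 88.8 and 111 CPM in KO + AAV-PRDM16 and 79.7, 76.6 and 89.3 in WT + AAV-GFP, and its log2 fold change was 0.05 without KO + AAV-PRDM16 mouse 3 and 0.29 without mouse 1 of that group, while that of Psmb8 was -0.68 without WT + AAV-GFP mouse 2. The median of the 43 was -0.05 (all genes, -0.02).

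The interaction of genotype and virus asks whether PRDM16 acted differently in KO. No proteasome gene was called by edgeR (0.0% of all genes) or DESeq2 (0.0053%), and at an unadjusted p under 0.05 Psme2b and Psmc2, a 19S ATPase, were lower (1.6% of all genes) and 0 higher (1.59%). Psmb8 had an interaction of -0.12 (SE 0.58), Psmb9 0.37 (SE 0.55), Psmb10 -0.07 (SE 0.36), Psme1 -0.08 (SE 0.26) and Psme2 0.44 (SE 0.53). Psmc2 had -0.36 (SE 0.16) and Psme2b -1.02 (SE 0.34), both with an edgeR adjusted p of 0.9998, and Psmc6 at 0.17 (SE 0.21) and Psme2 had the smallest p on the higher side.

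Psme2b is nearly identical to Psme2, so reads can be placed on either gene. Reads on Psme2b were 31.0 to 43.3% of the pair in WT + AAV-GFP, 35.3 to 67.5% in WT + AAV-PRDM16, 33.5 to 64.7% in KO + AAV-GFP and 32.1 to 57.5% in KO + AAV-PRDM16. In the 5 libraries where that share was above 50%, Psme2 read 11.1 to 16.2 CPM, and in the other 7 it read 20.1 to 31.5 CPM. Over the 12 AAV libraries the coefficient of variation was 35.2% for Psme2, 27.8% for Psme2b and 15.4% for their sum, so the single values of these 2 genes are uncertain. Added up before the fit, Psme2 + Psme2b read 33.99 to 45.97 CPM in WT + AAV-GFP, 34.2 to 44.2 in WT + AAV-PRDM16, 34.2 to 46.1 in KO + AAV-GFP and 30.3 to 34.9 in KO + AAV-PRDM16. The sum had a virus effect of -0.19 (SE 0.10, edgeR adjusted p 0.710) and an interaction of -0.23 (SE 0.21, edgeR adjusted p 0.9998).

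**Figure D4:**
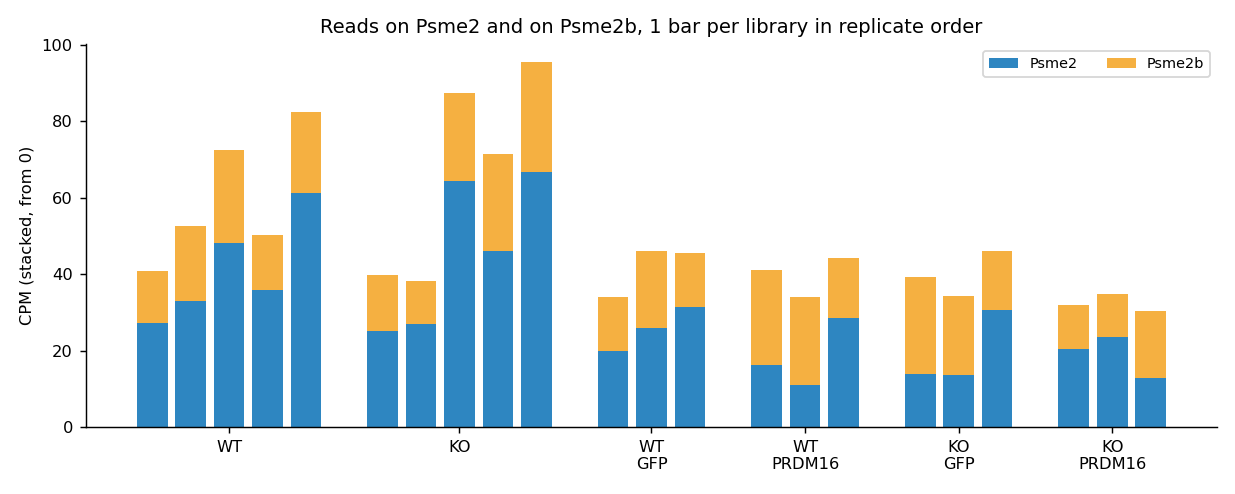
CPM of Psme2 and Psme2b stacked from 0, 1 bar per library in the order of replicates within each group. In the AAV cohort the boundary between the colours shifts from library to library while the height of the bar stays between 30.3 and 46.1 CPM.

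In the untreated cohort the question was whether loss of CPEB2 alone changed proteasome mRNAs. By edgeR 0 of 43 genes were called (0.0% of all 17869 genes tested), and DESeq2 called 0 (0.0%). At an unadjusted p under 0.05, Psmb8 and Psmb9 were higher in the libraries labelled KO (4.99% of all genes higher) and Psme4, Psmc6 and Psmd14 were lower (10.9% of all genes lower). The genes split about evenly, 22 higher and 21 lower, with a median of 0.13 (all genes, 0.04).

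Psmb8 read 4.97, 8.84, 13.7, 10.4 and 6.77 CPM in WT and 9.65, 16.4, 18.4, 12.4 and 22.4 in the libraries labelled KO. Psmb9 read 2.61, 3.49, 6.61, 5.62 and 4.81 CPM in WT and 4.91, 6.87, 12.6, 6.04 and 13.0 in the libraries labelled KO. Psmb10 read 5.76, 7.67, 14.1, 12.3 and 9.86 CPM against 8.82, 14.9, 18, 12.0 and 23.8. The groups overlapped for all 3, with WT mouse 3 the highest of its group and mouse 5 labelled KO the highest of the other.

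The log2 fold changes were 0.83 (SE 0.31) for Psmb8, 0.91 (SE 0.35) for Psmb9 and 0.64 (SE 0.31) for Psmb10, with edgeR adjusted p of 0.305, 0.305 and 0.325. Psme1 at 0.15 (SE 0.25) and Psme2 at 0.16 (SE 0.33) differed less. Without WT mice 1 and 2 the changes of Psmb8 and Psmb9 were 0.67 and 0.67 (edgeR adjusted p 0.867 for both), and that of Psmb10 was 0.42 with the same adjusted p. Without mouse 1 labelled KO the edgeR adjusted p was 0.160 for both Psmb8 and Psmb9 and 0.179 for Psmb10. The ratios to their partners differed by 0.37 for Psmb8/Psmb5, 0.39 for Psmb9/Psmb6 and 0.83 for Psmb10/Psmb7 on the log2 scale, with exact permutation p of 0.317, 0.0714 and 0.0873, where 5 against 5 can reach 0.00794. Without WT mice 1 and 2 the last was 0.42 with an exact permutation p of 0.357. Of 21 MHC class I and interferon genes, 17 were on the higher side, with 2 higher and 2 lower at an unadjusted p under 0.05 and 0 called. The 8 macrophage markers summed to 46.6 to 363 CPM in WT and 78.5 to 494 in the libraries labelled KO, with 8 of 8 on the higher side, and the 10 T cell markers to at most 4.23 and 5.67 CPM, with 9 of 9 tested on the higher side. None of these markers was called, and the part of immune cells in the values of Psmb8 and Psmb9 was not tested.

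Psme4 read 109, 103, 34.0, 49.5 and 58.1 CPM in WT and 56.3, 34.4, 31.2, 34.5 and 17.98 in the libraries labelled KO. WT mice 1 and 2 were far above the rest. Its log2 fold change was -1.02 (SE 0.37, edgeR adjusted p 0.305), and without those 2 mice it was -0.38. Psmd14, the deubiquitinase of the lid, read 32.5, 32.7, 24.0, 31.3 and 36.9 CPM in WT and 30.5, 16.6, 20.4, 20.8 and 10.3 in the libraries labelled KO, a log2 fold change of -0.67 (SE 0.27, edgeR adjusted p 0.305). Without mouse 1 labelled KO the edgeR adjusted p was 0.160 for both Psme4 and Psmd14. Psma3 alone did not overlap between the groups, at 45.2 to 64.3 CPM in WT and 17.0 to 44.2 in the libraries labelled KO, where 0.907% of all genes were wholly lower and 0.492% wholly higher. The log2 fold change of Psma3 was -0.53, and -0.00066 with the GC and length trend removed.

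The direction of a gene in that cohort went with the base composition of its transcript. Across the 43 genes, the correlation of log2 fold change with GC content was r = 0.81 (Spearman's rho 0.87), and across all genes tested it was 0.52 (0.59), both across genes and so not over independent replicates. Of the 22 genes with a GC content of 49.77% or more, 19 were on the higher side, with a median of 0.42. Of the 21 below, 18 were on the lower side, with a median of -0.26. The GC-rich group included Psmb8, Psmb9, Psmb10, Psmb5 (56.6%) and Psmd3, and the low group Psmc6 (37.0%), Psmd14 (43.2%) and Psme4 (43.9%).

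When a trend of counts with GC content and transcript length was removed in each library, 15 of the 43 genes were on the higher side with a median of -0.12. Of 17838 genes tested, 7873 were then higher and 9965 lower, with a median of -0.06. The r with GC content was 0.02 across the 43 genes and 0.01 across all genes, a slope that the correction removes by construction. Psmb8 then had a log2 fold change of 0.29, Psmb9 0.35 and Psmb10 0.01, and Psme4 -0.47 and Psmd14 -0.45. Psmc6 went from -0.71 to -0.15 and Psma3 from -0.53 to -0.00066. In the AAV cohort the same correction shifted the median of all genes in the virus comparison to 0.11 and that of the 43 genes to 0.11, and the log2 fold change of Psmb8 was -1.22.

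**Figure D5:**
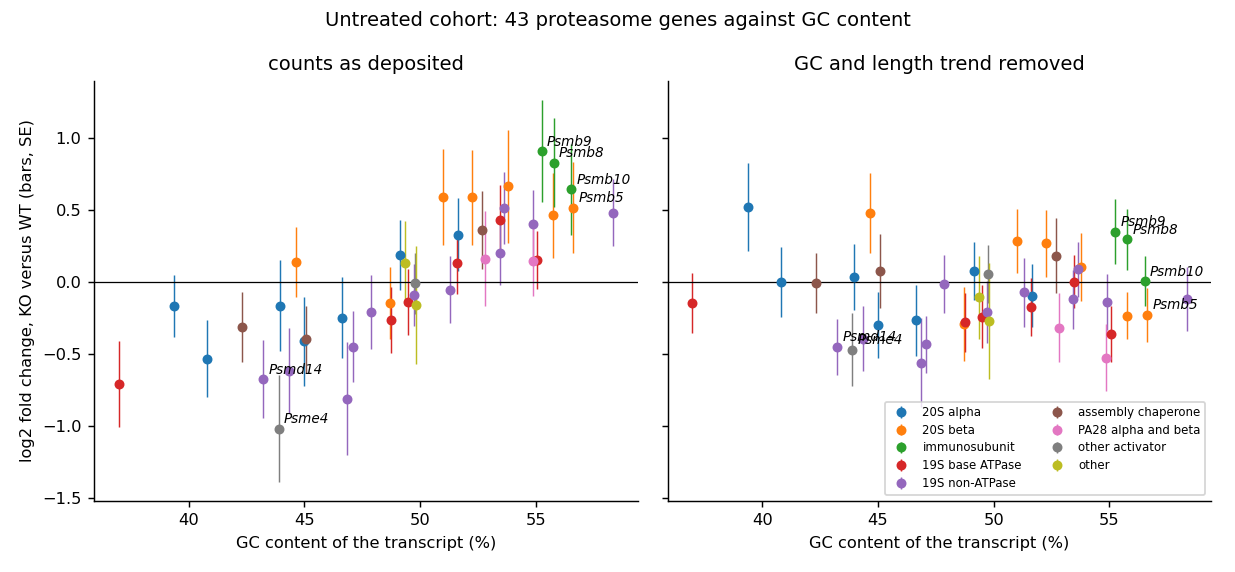
Log2 fold change with its SE of the 43 proteasome genes in the untreated cohort (libraries labelled KO versus WT) against the GC content of the transcript, from the counts as deposited (left) and with the GC and length trend removed (right), coloured by role. The left panel rises from -0.71 for Psmc6 at 37.0% GC to 0.91 for Psmb9, and the right panel has no such slope.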

How the data were processed

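Whole BAT of 22 mice in 6 groups and 2 cohorts was sequenced as mRNA. The deposited values were counts of reads per gene, unnormalised, in 1 table per cohort. Per the submitters' processing notes the authors used bcl2fastq 2.20, Trimmomatic 0.36 and HISAT2 on GRCm38.p6. The counting tool, its annotation release and its strand setting were not given in the sources used here. Symbols and biotypes came from GENCODE M21, which matched 55227 of 55487 identifiers. No pair of libraries of the same group agreed within sampling noise (the smallest median chi-square per gene was 5.27). Pairs from different groups were not examined in that way.

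In each cohort the counts were filtered with filterByExpr, scaled by TMM and tested with edgeR 4.0.16 (quasi-likelihood, R 4.3.3) over all genes, with Benjamini-Hochberg adjustment at an FDR of 0.05. The untreated fit had 2 groups, and the AAV fit had 4 groups with contrasts, so the 8 AAV comparisons share libraries. DESeq2 1.42.0, limma 3.58.1 voom with quality weights, no filter, other scaling, removal of a GC and length trend by splines, a replicate block and leaving out each library were alternatives. Ratios of catalytic pairs used a prior count of 2 and exact two-sided permutation tests, within the other factor in the AAV cohort. The fits were tested on simulated data. P-values measure the spread between mice as labelled.

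Members, gene lists and alternatives were chosen with earlier results of these data known. Named were the 5 genes reported apart, their constitutive partners, the highest gene of each role, any gene past the FDR, the 2 genes of smallest p in each direction in 5 comparisons, fixed pathway genes and the 5 genes most like Psmb9. Psmb2, Psmb3, Psma3 and genes whose groups did not overlap were named after their values were seen where the rule did not name them.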

Additional observations from a re-analysis of the deposited data

Results flagged for a closer look

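In the groups of 5, each of 92 sets of values was examined for a mouse far from the other 4, which chance alone flags in about 1 of 20 groups, and 2 were found. Psmd10, an assembly chaperone, read 14.3 CPM in WT mouse 5 against 10.4 to 11.2 in the other 4 WT mice. The log2 ratio of Psmb8 to Psmb5 was -2.43 in mouse 2 labelled KO against -3.62 to -3.37 in the other 4. The groups of 3 in the AAV cohort were not examined in that way.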

How the results depend on the processing

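With edgeR at an FDR of 0.05 the number of proteasome genes called was 0 in all 9 comparisons, and it was above 0 in 5 places. For AAV-PRDM16 versus AAV-GFP over both genotypes it was 2 by DESeq2 (3.19% of all genes) and 2 at an FDR of 0.1, and leaving out 1 library gave 0 to 2, the 2 without WT + AAV-GFP mouse 1. For the same contrast in KO it was 1 by DESeq2 (Psmb8), where 1.44% of all genes were called. For the untreated cohort it was 1 (Psme4) at an FDR of 0.5 with at least 2-fold, the rule by which the paper defined its changed genes. Without WT mice 1 and 2 the log2 fold change of Psme4 was -0.38, short of 2-fold. The shares of all genes at an FDR of 0.1, without 1 library or by the paper's rule are not given here. Those counts therefore have no background beside them.

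Leaving out 1 mouse moved the log2 ratio of Psmb8/Psmb5 between 0.16 (without mouse 2 labelled KO) and 0.53 (without WT mouse 2) in the untreated cohort, where it was 0.19 without WT mouse 5, and between 0.26 (without KO + AAV-GFP mouse 3) and 0.69 for KO versus WT over both viruses, where it was 0.27 without WT + AAV-GFP mouse 1. It moved the untreated log2 ratio of Psmb9/Psmb6 between 0.30 and 0.48 (exact permutation p = 0.0476 without mouse 4 labelled KO) and that of Psmb10/Psmb7 between 0.61 and 1.04 (p = 0.0397 by the exact permutation test without WT mouse 3). Psmb10/Psmb7 between the viruses moved between -0.66 and -0.28. Between KO and WT over both viruses Psmb9/Psmb6 ran from -0.14 to 0.22, turning sign without KO + AAV-GFP mouse 3 (-0.14), KO + AAV-PRDM16 mouse 2 (-0.05) or WT + AAV-GFP mouse 1 (-0.10), and Psmb10/Psmb7 ran from -0.020 to 0.36, turning sign without KO + AAV-GFP mouse 3 (-0.020). The causes were not tested.

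Replicate numbers are shared between the groups, and the main fits did not pair mice by them. Deviations of same-numbered libraries correlated from -0.292 to 0.111 (untreated) and -0.091 to 0.154 (AAV). Those of libraries with different numbers correlated from -0.357 to 0.293 and from -0.232 to 0.211. With so few libraries such values cannot exclude shared litters or batches. With the replicate block 0 proteasome genes were called in each comparison, Psmb8 between the viruses had -1.28 (edgeR adjusted p 0.0770), and Irf1 (0.0652) and Psmg1 (0.0561) were no longer called. With 3 mice a group, the SE of about 0.3 for Psmb8 limits what can be detected.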
